A study of Homo sapiens with 24 samples.

Results

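The genes described here are 10 feedback regulators and output genes of mitogen-activated protein kinase (MAPK) signalling, namely DUSP4, DUSP5, DUSP6, SPRY2, SPRY4, SPRED1, ETV4, ETV5, FOS and EGR1. They were taken as a fixed list of symbols, matched through their Ensembl identifiers, out of 60623 genes in all. Transcripts of 4 human lung cancer cell lines were measured by strand-specific RNA sequencing, with 24 libraries in all and 3 in each of 8 groups that the study's design text describes as independent biological replicates. In A549 and H1299, lines of non-small cell lung cancer, cells overexpressing HEPACAM2 (OE), an adhesion molecule of the immunoglobulin superfamily, were set against control cells of wild-type genotype label. In DMS454 and H1694, lines of small cell lung cancer, libraries titled CRISPR with a genotype label of HEPACAM2 knockdown were set against libraries titled control with a wild-type label. No drug, growth factor or starvation is named for any group, and the vector, the guide, the number of clones and the meaning of the library codes are not given in the labels.

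When a growth factor receptor or a mutant RAS activates the kinases RAF, MEK and ERK, ERK enters the nucleus and switches on genes within minutes. FOS and EGR1 are transcription factors of that immediate early wave. ETV4 and ETV5 are ETS-family transcription factors whose transcripts follow ERK activity, and the other genes close the loop. DUSP4, DUSP5 and DUSP6 are phosphatases that remove the activating phosphates from ERK, the DUSP4 and DUSP5 proteins in the nucleus and DUSP6 in the cytoplasm. SPRY2, SPRY4 and SPRED1 act above ERK, where Sprouty proteins dampen receptor signalling to RAS and SPRED1 brings neurofibromin to RAS. Transcript levels of such genes are widely used as a readout of ERK output, but phosphorylated ERK was not measured here. In GENCODE release 29 (GRCh38), ETV4 lies at chr17:43527844-43579620 and ETV5 at chr3:186046308-186110318, both on the minus strand, and DUSP5 at chr10:110497838-110511544 on the plus strand. DUSP6 lies at chr12:89347232-89353271, SPRY2 at chr13:80335976-80340951 and SPRY4 at chr5:142310427-142326455 on the minus strand, and SPRED1 at chr15:38252326-38357249 on the plus strand. Values are per gene, so isoforms are not separated.

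HEPACAM2 itself was checked in every library. In A549, OE libraries 1, 2 and 3 held 6074, 5864 and 6084 normalized counts, against 1.1, 0 and 0 in the controls. In H1299, the OE libraries held 27257, 25000 and 23710 normalized counts, against 3.49, 3.07 and 2.08 in the controls. Both OE groups therefore carried HEPACAM2 transcript that their controls had at or near 0. In DMS454, however, the libraries labelled CRISPR held 11460, 11256 and 10844 normalized counts, against 6430, 6543 and 6677 in the libraries labelled control. In H1694, those labelled CRISPR held 10124, 10545 and 10399, against 3433, 3551 and 3688 in those labelled control. The transcript of the targeted gene was thus higher in the libraries labelled CRISPR of both small cell lines, by log2 fold changes of 0.77 (SE 0.04) and 1.54 (SE 0.04), which goes against a knockdown label at the RNA level. For HEPACAM2 the authors' deposited table gives log2 fold changes of 14.12 in A549 and 13.08 in H1299, positive like OE over control, and of -0.77 in DMS454 and -1.54 in H1694, the sign of libraries labelled control over those labelled CRISPR. Whether the titles of the small cell libraries are exchanged cannot be told from the labels. Groups below follow the labels, and each direction in DMS454 and H1694 is that of the libraries labelled CRISPR, whichever arm carries the edit.

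The H1299 libraries held 12704476 to 20332419 reads and those of A549 held 16358272 to 29838960. Depth ranged between 15652553 and 30241598 reads in DMS454 and between 19682771 and 31770858 in H1694. Comparisons were made within each line, with limma on log2(normalized count + 1) and Benjamini-Hochberg adjustment over all genes tested, and a gene is said to have risen or fallen where the adjusted p was under 0.05. In all, 3 libraries stood apart from their group mates. The median absolute log2 difference per gene from the mates was 0.209 in H1299 OE library 1 and 0.213 in H1299 control library 1, against 0.136 to 0.148 in the other H1299 libraries. It was 0.165 in DMS454 library 3 labelled CRISPR, against 0.0814 to 0.119 in the other DMS454 libraries. Of 12 neuroendocrine markers, 12 in DMS454 and 11 in H1694 reached a mean of 10 normalized counts, while 5 did so in A549 and 4 in H1299. Blood markers summed to at most 96.0 normalized counts in any library, with CD3E at 0 or without a value in all 4 lines.

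The promoters of FOS and EGR1 are shown because they are the immediate early genes of the set and both fell in H1299. The sequences are RefSeq's (GRCh38.p14), 250 bases before to 50 bases after the start site, 5′ to 3′ on the gene's strand. Capitals mark CArG boxes, where serum response factor binds, and the core of the cAMP response element, TGACG on either strand.
EGR1, chr5:138465229-138465528, plus strand: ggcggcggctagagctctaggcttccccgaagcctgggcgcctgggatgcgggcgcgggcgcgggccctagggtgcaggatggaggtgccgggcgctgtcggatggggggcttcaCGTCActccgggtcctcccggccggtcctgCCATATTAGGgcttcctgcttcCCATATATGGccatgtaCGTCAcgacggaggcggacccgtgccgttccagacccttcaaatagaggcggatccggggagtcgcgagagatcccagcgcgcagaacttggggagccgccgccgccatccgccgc
FOS, chr14:75278578-75278877, plus strand: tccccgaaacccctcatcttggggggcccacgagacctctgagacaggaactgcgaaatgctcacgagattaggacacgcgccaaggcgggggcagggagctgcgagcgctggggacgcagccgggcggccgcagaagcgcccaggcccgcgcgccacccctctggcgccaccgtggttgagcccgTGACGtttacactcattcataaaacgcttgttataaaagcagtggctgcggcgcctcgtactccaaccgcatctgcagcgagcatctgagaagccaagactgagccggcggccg
The EGR1 window held 2 CArG boxes, CCATATTAGG starting at base -105 and CCATATATGG at base -83 from the start site, and cAMP response element cores at -135 and -66. A CArG box occurs in 1.29% of the 35116 promoter windows of the table and the TGACG core in 24.6%. The FOS window held a TGACG core at -64 and no CArG box. Bases more than 250 before the start site were not searched, so a CArG box further upstream would be missed. Promoter windows were given for 6 of the 10 genes, FOS, EGR1, DUSP6, SPRY2, SPRY4 and SPRED1. The ETS-type motif CCGGAAGT, searched on both strands, was in none of these windows and is in 4.14% of all windows, whereas its core GGAA is in 95.5% of them. A match is a description of these letters only.

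The study's control libraries give the level of each gene in the non-small cell lines without added HEPACAM2. Levels are given here as RPKM, reads per kilobase of exon scaled to the library's total, from reads recovered from the deposited values and the exon length of GENCODE release 29. The tables of the lines were normalized separately and no test was made between lines. In A549 control cells DUSP5 averaged 27.5 ± 1.65, DUSP4 27.4 ± 1.16 and ETV4 25.6 ± 1.02 RPKM (SD, n = 3 each), and the libraries of these neighbours in the order overlapped. ETV5 followed at 7.85 ± 0.07 and SPRY2 at 5.26 ± 0.34 RPKM. Below them lay DUSP6 at 3.53, SPRED1 at 3.37, FOS at 2.50, SPRY4 at 1.75 and EGR1 at 0.608 RPKM, of which DUSP6 and SPRED1 overlapped, as did SPRED1 and FOS.

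In H1299 control cells DUSP5 was again highest, at 51.6 ± 2.91 RPKM (SD, n = 3). SPRY2 at 21.2, FOS at 17.5, ETV5 at 16.3 and SPRY4 at 15.9 RPKM formed a chain in which each overlapped the next. DUSP6 at 12.6, EGR1 at 11.5 and ETV4 at 11.04 RPKM formed another, and SPRED1 was lowest at 6.45 RPKM. Of the 9 genes measured in both lines, 8 had the higher mean in H1299 control cells and ETV4 alone had it in A549 control cells. The ratio of H1299 to A549 control means was 18.8 for EGR1, 9.11 for SPRY4, 7.01 for FOS, 4.03 for SPRY2 and 3.58 for DUSP6, while ETV4 was 2.32-fold higher in A549. EGR1, SPRY4 and FOS thus showed the widest gaps between the lines. DUSP4 in H1299 was not analysed here.

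In the small cell lines most of the genes were lower. For 6 of the 10, the lowest non-small cell control mean lay above the means of both small cell lines. DUSP4 is among them with the A549 mean alone, as it has no H1299 value here. DUSP5 averaged 12.5 RPKM in DMS454 and 3.45 RPKM in H1694 libraries labelled control, DUSP4 averaged 5.75 and 4.27 RPKM, and DUSP6 averaged 1.56 and 1.23 RPKM. For DUSP5 and DUSP6 the lowest non-small cell control mean was at least 2.20-fold above the highest small cell mean of libraries labelled control. For DUSP4 the A549 control mean was 4.76-fold above that highest mean, and H1299 could not be compared. ETV5 broke that order, with 13.9 RPKM in H1694 libraries labelled control against 7.85 RPKM in A549 control cells, and led all 10 genes in H1694. FOS at 3.92 RPKM, EGR1 at 2.13 RPKM and SPRY4 at 1.87 RPKM in H1694 libraries labelled control also lay above the A549 control means. For SPRY4, at 1.75 RPKM in A549, the libraries overlapped. EGR1 in DMS454 libraries labelled control, at 1.21 RPKM, lay above the A549 control mean of 0.608 RPKM too. SPRY4 in DMS454 was the lowest value of all, at 0.181 RPKM.

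**Figure D1:**
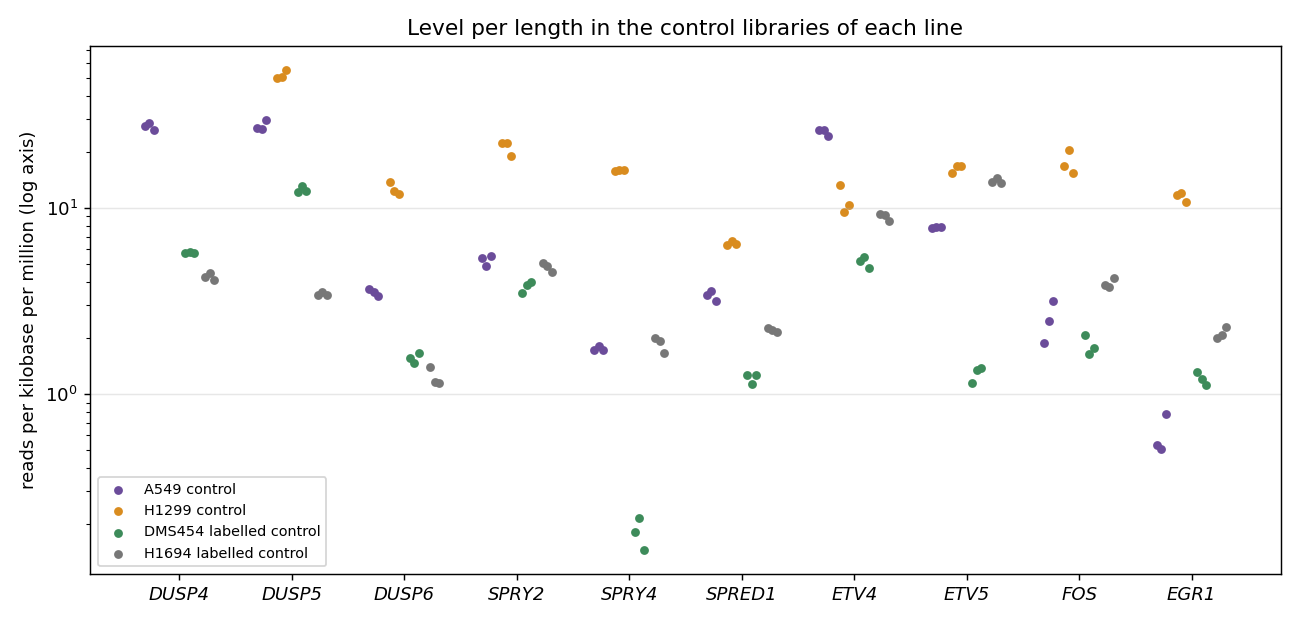
Level per length (RPKM, log axis) of the 10 genes, 1 point per library, for A549 and H1299 control cells and for DMS454 and H1694 libraries labelled control. EGR1 averaged 11.5 in H1299 and 0.608 in A549, ETV4 was higher in A549 than in H1299, and SPRY4 in DMS454 was lowest; DUSP4 has no H1299 point.

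HEPACAM2 overexpression in A549 went with lower transcripts of the 3 DUSP phosphatases, of ETV4 and of FOS. Of the 10 genes, 5 fell, 0 rose and 5 did not pass limma's test. At an unadjusted p under 0.05, 6 were lower and 0 higher, and edgeR, DESeq2 and limma-voom on the recovered reads also called 0 higher. In A549, 44.4% of 16707 tested genes passed in either direction, 22.5% upward and 21.9% downward, so that 5 of 10 is near the share in the line as a whole. The median log2 fold change of the 10 genes was -0.36, beside -0.0019 over all tested genes. The libraries of OE and control did not overlap for 6 of the 10 genes, all lower in OE, a pattern without overlap seen in 51.8% of tested genes, 26.1% higher and 25.7% lower. In bulk RNA, fewer cells carrying a transcript and less transcript per cell cannot be told apart.

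ETV4 showed the largest change of the 10 genes in A549. Its OE libraries held 871, 910 and 900 normalized counts, against 1848, 1908 and 1741 in the controls, so that every OE library lay below every control by a wide margin. The means were 894 ± 20.5 in OE and 1832 ± 84.4 in control cells (SD, n = 3 each), a 2.05-fold lower level on the log2(value + 1) scale (log2 fold change -1.03, SE 0.05, limma adjusted p = 3.81e-23). ETV5, its close relative, held 844, 885 and 838 normalized counts in OE against 885, 921 and 907 in control libraries. The highest OE and the lowest control library almost met, and the gap did not pass (log2 fold change -0.08, 95% interval -0.19 to 0.03, adjusted p = 0.228).

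All 3 phosphatases fell in A549. DUSP4 held 2803, 2562 and 2644 normalized counts in OE against 3918, 4158 and 3752 in control libraries, a log2 fold change of -0.56 (SE 0.04, adjusted p = 1.08e-15). DUSP5 held 1087, 938 and 1131 in OE against 1373, 1391 and 1521 in control libraries (log2 fold change -0.44, SE 0.06, adjusted p = 1.53e-07). DUSP6, the cytoplasmic phosphatase, held 233, 220 and 242 in OE against 334, 331 and 308 in control libraries (log2 fold change -0.48, SE 0.09, adjusted p = 8.96e-06). The groups did not overlap for any of the 3 genes.

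None of the members that act above ERK passed in A549. SPRY2 held 262 to 314 normalized counts in OE and 298 to 330 in control libraries (log2 fold change -0.13, 95% interval -0.30 to 0.05, adjusted p = 0.242). SPRY4 held 151, 180 and 239 in OE against 222, 238 and 223 in control libraries, with OE library 3 above the controls and the other OE libraries below them. Its log2 fold change of -0.28 (95% interval -0.52 to -0.04) had an adjusted p of 0.0513, and without OE library 3 it was -0.46 with an adjusted p of 0.000726. On the recovered reads edgeR called it too (adjusted p = 0.0471). SPRED1 held 489 to 561 in OE and 514 to 592 in control libraries (log2 fold change -0.06, 95% interval -0.20 to 0.07, adjusted p = 0.477).

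FOS and EGR1 were scarce in A549. FOS held 93.5, 118 and 90.5 normalized counts in OE against 119, 160 and 203 in control libraries, and fell by 0.64 on the log2 scale (SE 0.15, adjusted p = 0.00103). The highest OE library lay just under the lowest control. EGR1 held 52.1, 45.9 and 36.7 in OE against 33.0, 32.2 and 48.3 in control libraries, overlapping, with a log2 fold change of 0.25 and an interval of -0.19 to 0.69 (adjusted p = 0.374). Mitochondrial transcripts took 5.98%, 6.16% and 5.77% of reads in the A549 OE libraries and 6.22%, 6.91% and 8.14% in the control libraries, without overlap. Marker lists of cell types also differed between the A549 groups. The 10 lung epithelial markers, 5 of them at a mean of 10 or more and KRT8 highest, summed to 191789 to 201275 in OE and 211068 to 219833 in control libraries, with NKX2-1, SFTPB, SCGB1A1 and KRT5 at 0 or without a value. The summed level of 8 fibroblast markers was 2311 to 2485 in OE and 385 to 406 in control libraries, with 4 of 8 at a mean of 10 or more, COL1A1 highest, and COL1A2 and DCN at 0 or without a value. The 12 neuroendocrine markers summed to 539 to 640 in OE and 734 to 837 in control libraries, the 7 endothelial ones, led by EGFL7, to 862 to 1022 in OE and 1240 to 1287 in control libraries, and the 8 blood markers, led by CD14, to 45.3 to 52.1 in OE and 84.7 to 96.0 in control libraries. The part of these in the members' changes was not tested.

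**Figure D2:**
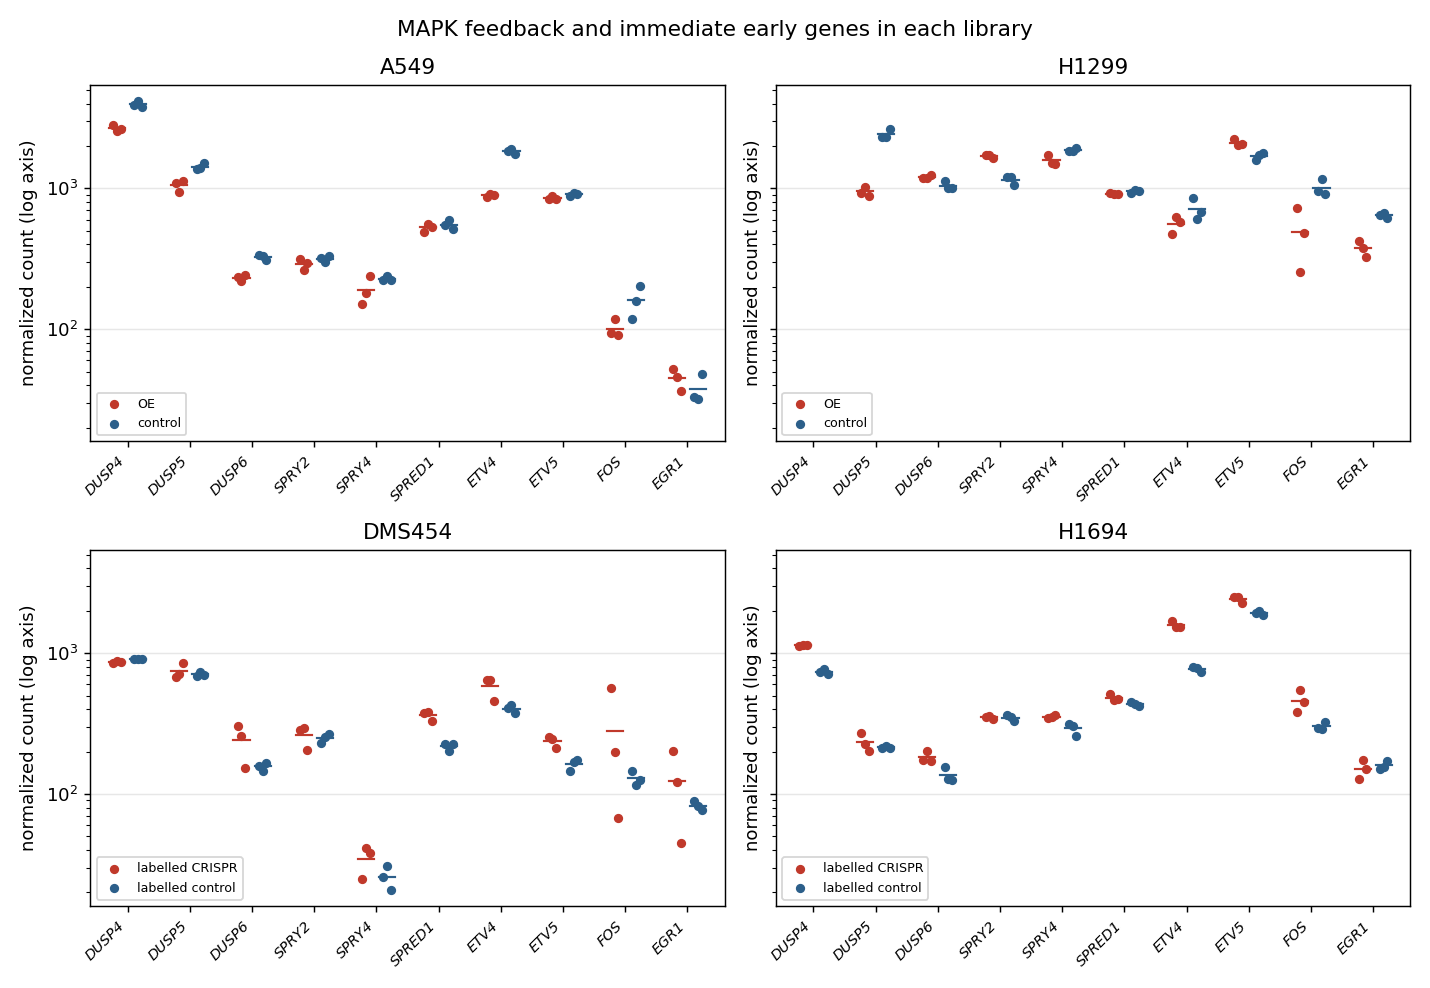
Normalized counts (log axis) of each gene in each library, 1 panel per line, with the OE or labelled CRISPR libraries to the left of the control libraries. In A549, ETV4 sits at 871 to 910 in OE and 1741 to 1908 in control libraries, and in H1694 at 1526 to 1701 in libraries labelled CRISPR and 730 to 797 in those labelled control.

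In H1299, overexpression went with changes in both directions. DUSP5, SPRY4, FOS and EGR1 fell, SPRY2 and ETV5 rose, and DUSP6, SPRED1 and ETV4 did not pass, which made 6 of 9 genes called. In H1299, 28.8% of 16192 tested genes passed in either direction, 13.5% upward and 15.3% downward. The members' median log2 fold change was -0.25, beside 0.0018 over all tested genes. The groups did not overlap for 8 of the 9 genes, 3 higher and 5 lower in OE, against 43.3% of tested genes in either direction, 20.5% higher and 22.8% lower. The count depended on single libraries: 3 of 9 were called without control library 2 and 3 of 9 without OE library 3.

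DUSP5 showed the largest change of the 9 genes. It held 934, 1026 and 889 normalized counts in OE against 2304, 2321 and 2621 in control libraries, a 2.54-fold lower level (log2 fold change -1.35, SE 0.09, limma adjusted p = 5.01e-05). The highest OE library, at 1026, lay far below the lowest control, at 2304. DUSP6 lay the other way, at 1191, 1192 and 1241 in OE against 1126, 1011 and 1000 in control libraries, without overlap. Its log2 fold change of 0.21 (95% interval 0.03 to 0.39) had an adjusted p of 0.0757, and without control library 1 it was 0.26 with an adjusted p of 0.0259. The nuclear and the cytoplasmic phosphatase were thus on opposite sides of 0 in H1299.

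The Sproutys also parted. SPRY2 held 1723, 1719 and 1649 normalized counts in OE against 1195, 1198 and 1052 in control libraries, and rose by 0.56 on the log2 scale (SE 0.08, adjusted p = 0.0013). SPRY4 held 1714, 1521 and 1498 in OE against 1843, 1838 and 1921 in control libraries, and fell by 0.25 (SE 0.08, adjusted p = 0.0436). The SPRY4 call stood close to the threshold and was lost without control library 2 (adjusted p = 0.112), control library 3 (0.154), OE library 2 (0.154) or OE library 3 (0.159), and with DESeq2 on the recovered reads (0.0851) or with no filter on low genes (0.053). SPRED1 held 906 to 921 in OE and 924 to 967 in control libraries, a log2 fold change of -0.06 with an interval of -0.22 to 0.10 (adjusted p = 0.567).

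Of the ETS factors in H1299, ETV5 held 2239, 2016 and 2079 normalized counts in OE against 1583, 1716 and 1778 in control libraries. It rose by 0.32 on the log2 scale (SE 0.08, adjusted p = 0.0155), with adjusted p = 0.0558 without control library 2 and 0.0538 without OE library 3. ETV4 held 475, 628 and 579 in OE against 849, 603 and 682 in control libraries, where OE library 2 lay above the lowest control. Its log2 fold change of -0.34 (95% interval -0.67 to -0.01) had an adjusted p of 0.117.

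Both immediate early members fell in H1299. EGR1 held 426, 378 and 326 normalized counts in OE against 648, 663 and 616 in control libraries, and fell by 0.78 on the log2 scale (SE 0.11, adjusted p = 0.00144). FOS held 723, 256 and 481 in OE against 960, 1166 and 906 in control libraries, and fell by 1.17 (SE 0.32, adjusted p = 0.0293). The OE libraries spread widely for FOS, 487 ± 234 in OE against 1011 ± 138 in control cells (SD, n = 3 each), while still lying below all controls. The FOS call was lost without control library 2 (log2 fold change -1.06, adjusted p = 0.0967), control library 3 (-1.24, 0.0665) or OE library 3 (-1.22, 0.0676), and without both libraries numbered 1 (-1.55, 0.109). Without OE library 2, the lowest, FOS was called at a smaller log2 fold change of -0.77 (adjusted p = 0.0323). Mitochondrial transcripts took 6.51%, 3.81% and 4.06% of reads in OE libraries 1, 2 and 3 and 4.66%, 4.91% and 6.85% in control libraries 1, 2 and 3. Summed lung epithelial markers, 3 of 10 at a mean of 10 or more and KRT18 highest, were at 14348 to 16442 in OE and 16878 to 19642 in control libraries, with SFTPB, SFTPC, SCGB1A1 and KRT5 at 0 or without a value. The part of either in the members' changes was not tested.

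Whether the change under overexpression differed between A549 and H1299 was tested as a difference of differences in a limma fit of 12 libraries. It passed for 6 of the 9 genes, beside 37.4% of 16561 tested genes, 20.2% with a higher and 17.2% with a lower change in A549. The change of DUSP6 was lower in A549, with a difference of -0.69 (A549 minus H1299, SE 0.10, adjusted p = 0.000107), and so was that of SPRY2, at -0.69 (SE 0.11, adjusted p = 0.000282). ETV4 differed by -0.70 (SE 0.16, adjusted p = 0.00339) and ETV5 by -0.40 (SE 0.09, adjusted p = 0.00234), both lower in A549. DUSP5 differed by 0.90 (SE 0.12, adjusted p = 3.3e-05) and EGR1 by 1.03 (SE 0.24, adjusted p = 0.00367), the change in H1299 being the lower. SPRY4, SPRED1 and FOS did not pass, with intervals of -0.41 to 0.33, -0.22 to 0.21 and -0.33 to 1.38. The OE lines thus shared a fall of DUSP5 and FOS, each called in both lines, while the size of the DUSP5 fall differed.

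**Figure D3:**
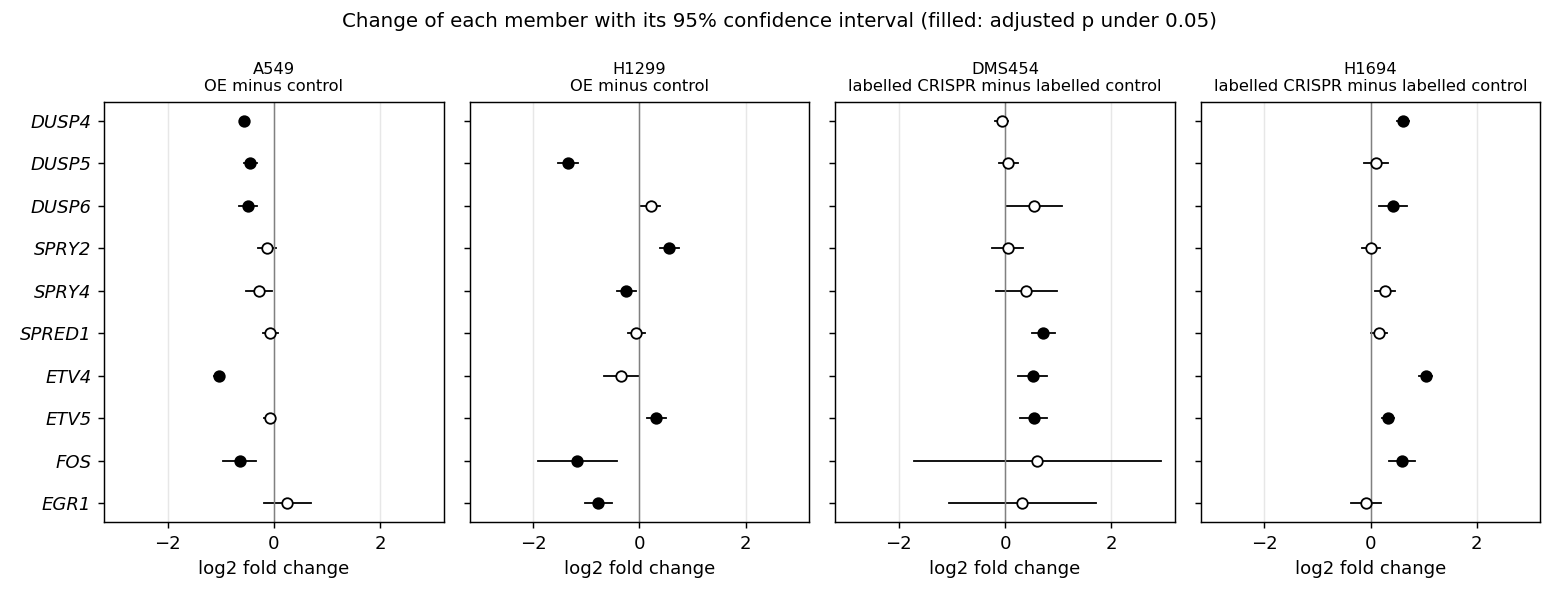
Log2 fold change of each gene with its 95% confidence interval in each line, OE minus control in A549 and H1299 and labelled CRISPR minus labelled control in DMS454 and H1694; filled points passed an adjusted p of 0.05. ETV4 runs from -1.03 in A549 to 1.04 in H1694, and the FOS interval in DMS454 spans -1.71 to 2.94.

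In DMS454, the libraries labelled CRISPR had more SPRED1, ETV4 and ETV5 transcript than those labelled control. Of the 10 genes, 3 rose, 0 fell and 7 did not pass limma's test. None was lower at an unadjusted p under 0.05 (4 were higher) or by edgeR, DESeq2 or limma-voom on the recovered reads. In DMS454, 18.9% of 18868 tested genes passed in either direction, 9.15% upward and 9.72% downward. The median log2 fold change was 0.46 over the 10 genes and 0.0004 over all tested genes. Groups did not overlap for 4 of the 10 genes, 3 higher and 1 lower, beside 36.6% of tested genes, 18.3% higher and 18.4% lower. These directions belong to the arm with the higher HEPACAM2 transcript.

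SPRED1 held 374, 380 and 329 normalized counts in libraries labelled CRISPR against 227, 202 and 227 in those labelled control, and rose by 0.72 on the log2 scale (SE 0.10, limma adjusted p = 0.000369). ETV5 held 252, 248 and 213 in those labelled CRISPR against 145, 169 and 175 in those labelled control, and rose by 0.54 (SE 0.12, adjusted p = 0.00708). ETV4 held 648, 644 and 460 in those labelled CRISPR against 405, 425 and 373 in those labelled control, and rose by 0.53 (SE 0.12, adjusted p = 0.0134). The libraries labelled CRISPR were all above those labelled control for these 3 genes, with library 3 lowest of its group each time. The ETV4 call was lost without labelled control library 1 (log2 fold change 0.53, adjusted p = 0.0581), labelled control library 3 (0.48, 0.0692) or labelled CRISPR library 1 (0.44, 0.0553).

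The immediate early members scattered in the DMS454 libraries labelled CRISPR. FOS held 567, 199 and 67.2 normalized counts in libraries 1, 2 and 3 labelled CRISPR, against 147, 116 and 125 in those labelled control. EGR1 held 203, 121 and 44.8 in those labelled CRISPR against 89.6, 81.7 and 76.5 in those labelled control. DUSP6 held 306, 260 and 153 in those labelled CRISPR against 157, 147 and 167 in those labelled control. For FOS and EGR1, libraries 1 and 2 labelled CRISPR lay above every library labelled control and library 3 lay below every one of them. The log2 fold changes were 0.61 for FOS (95% interval -1.71 to 2.94, adjusted p = 0.686), 0.32 for EGR1 (-1.06 to 1.71, adjusted p = 0.738) and 0.55 for DUSP6 (0.04 to 1.07, adjusted p = 0.129). Without library 3 labelled CRISPR, EGR1 was called at 0.92 (adjusted p = 7.72e-05) and DUSP6 at 0.84 (adjusted p = 2.48e-07), which made 5 of 10 called. In that fit 6605 genes were called in all, against 3560 with every library, so the gain was not particular to the members. With all libraries, DESeq2 on the recovered reads called DUSP6 as well (adjusted p = 0.0199).

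That library also had a mitochondrial share of 5.42%, against 3.99% and 3.14% in the other libraries labelled CRISPR and 4.55% to 5.02% in those labelled control. Of other immediate early genes, JUNB held 885, 824 and 628 normalized counts in libraries 1, 2 and 3 labelled CRISPR against 520 to 631 in those labelled control. IER2 held 1690, 1606 and 1345 in those labelled CRISPR against 1280, 1213 and 1267 in those labelled control. Library 3 was thus the lowest of those labelled CRISPR for JUNB and IER2 as well. Over all 20 tested genes of that list it was not. Their mean log2 value was 8.970, 8.941 and 8.942 in libraries 1, 2 and 3 labelled CRISPR. In those labelled control it was 8.78 to 9.02. Summed lung epithelial markers were 47684 to 48109 in libraries labelled CRISPR and 46421 to 47418 in those labelled control, with 6 of 10 at a mean of 10 or more, KRT8 highest and KRT5 at 0 or without a value. The part of these in the members' values was not tested.

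The remaining DMS454 members did not pass. DUSP4 held 857 to 882 normalized counts in libraries labelled CRISPR and 903 to 912 in those labelled control, without overlap but with a log2 fold change of only -0.06 (95% interval -0.18 to 0.05, adjusted p = 0.453). DUSP5 held 676 to 847 and SPRY2 205 to 294 in those labelled CRISPR, against 688 to 738 and 231 to 266 in those labelled control (adjusted p = 0.649 and 0.829). SPRY4 was near the lower end of what was measured, with 25.0, 41.1 and 38.3 in those labelled CRISPR against 25.8, 30.8 and 20.9 in those labelled control (log2 fold change 0.40, 95% interval -0.17 to 0.97, adjusted p = 0.322).

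**Figure D4:**
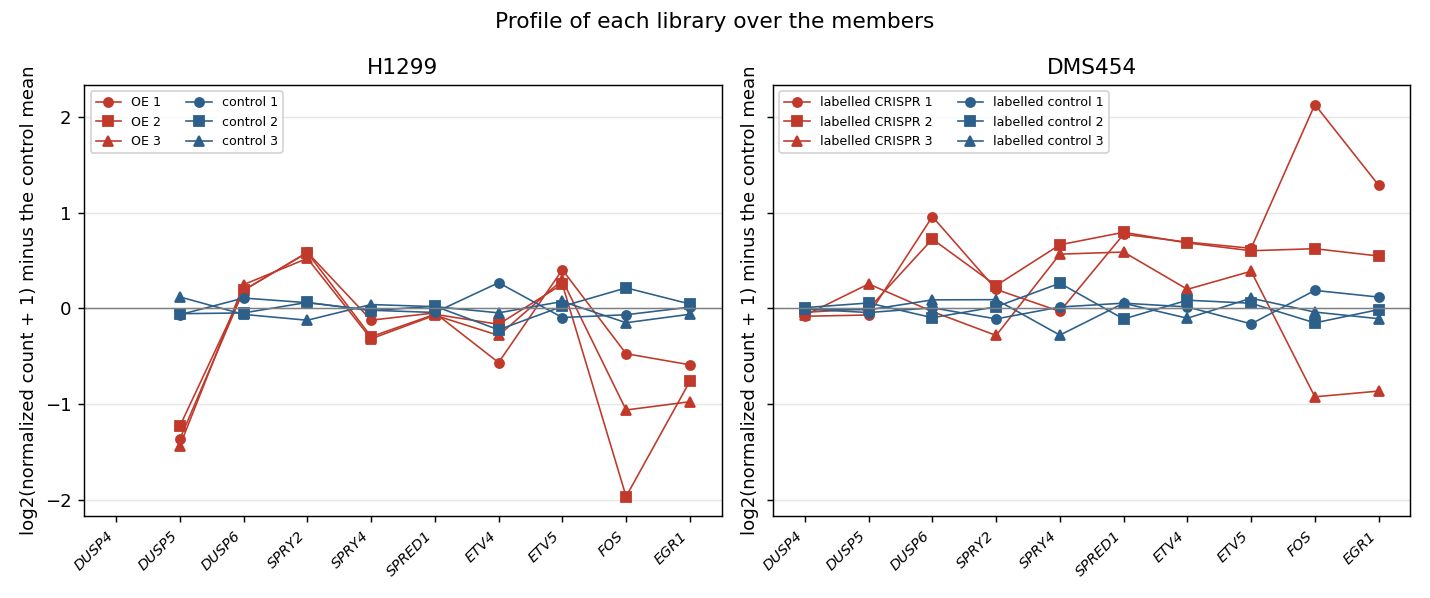
Log2(normalized count + 1) of each gene in each H1299 and DMS454 library minus the mean of the control libraries (labelled control in DMS454), 1 line per library, with no DUSP4 point in H1299. In DMS454, FOS and EGR1 spread widely over the libraries labelled CRISPR (FOS 567, 199 and 67.2 normalized counts), whereas in H1299 DUSP5 lies low in all 3 OE libraries.

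In H1694, the libraries labelled CRISPR had more DUSP4, DUSP6, ETV4, ETV5 and FOS transcript. Of the 10 genes, 5 rose, 0 fell and 5 did not pass limma's test. At an unadjusted p under 0.05, 7 were higher and 0 lower, and 0 were called lower by edgeR, DESeq2 or limma-voom on the recovered reads. In H1694, 17.6% of 17780 tested genes passed in either direction, 8.73% upward and 8.9% downward. The median log2 fold change was 0.30 over the 10 genes and -0.0010 over all tested genes. Groups did not overlap for 7 of the 10 genes, all higher in libraries labelled CRISPR, beside 35% of tested genes in either direction, 17.4% higher and 17.6% lower. Here too the higher values are those of the arm with more HEPACAM2 transcript.

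ETV4 held 1701, 1534 and 1526 normalized counts in libraries labelled CRISPR against 797, 786 and 730 in those labelled control. It was 2.06-fold higher (log2 fold change 1.04, SE 0.06, limma adjusted p = 6.74e-09), the largest change of the 10 genes in this line. ETV5 held 2493, 2505 and 2270 in those labelled CRISPR against 1910, 2001 and 1874 in those labelled control (log2 fold change 0.33, SE 0.05, adjusted p = 0.000271). Both ETS factors were higher in every library labelled CRISPR than in any labelled control.

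Of the phosphatases in H1694, DUSP4 held 1120, 1144 and 1138 normalized counts in libraries labelled CRISPR against 732, 776 and 712 in those labelled control (log2 fold change 0.62, SE 0.05, adjusted p = 1.17e-06). DUSP6 held 175, 202 and 172 in those labelled CRISPR against 155, 128 and 126 in those labelled control (log2 fold change 0.43, SE 0.12, adjusted p = 0.0257). DUSP4 was tight within each group, whereas the DUSP6 call was lost without labelled control library 2 (0.38, adjusted p = 0.111), labelled control library 3 (0.38, 0.0941) or labelled CRISPR library 2 (0.36, 0.137). DUSP5, at 202 to 269 in those labelled CRISPR and 213 to 219 in those labelled control, overlapped (log2 fold change 0.10, 95% interval -0.13 to 0.34, adjusted p = 0.579).

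FOS rose in H1694 and EGR1 did not pass. FOS held 383, 551 and 448 normalized counts in libraries labelled CRISPR against 296, 289 and 323 in those labelled control, without overlap (log2 fold change 0.59, SE 0.11, adjusted p = 0.00354). EGR1 held 127, 175 and 150 in those labelled CRISPR against 150, 156 and 172 in those labelled control (log2 fold change -0.09, 95% interval -0.37 to 0.19, adjusted p = 0.691). The members that act above ERK did not pass either. SPRY4 held 344, 350 and 361 in those labelled CRISPR against 315, 303 and 260 in those labelled control, without overlap, and missed the threshold narrowly (log2 fold change 0.27, 95% interval 0.08 to 0.46, adjusted p = 0.0509; 0.0368 without labelled CRISPR library 1 and 0.0458 with edgeR). SPRED1 held 464 to 512 in those labelled CRISPR and 422 to 447 in those labelled control (0.16, adjusted p = 0.152), and SPRY2 held 342 to 357 in those labelled CRISPR and 327 to 366 in those labelled control (0.01, 95% interval -0.15 to 0.18, adjusted p = 0.926). Summed endothelial markers, 4 of 7 at a mean of 10 or more and CDH5 highest, were at 4203 to 4308 in libraries labelled CRISPR and 3580 to 3629 in those labelled control. Fibroblast markers, 3 of 8 at that mean with COL3A1 and LUM at 0 or without a value, were at 1157 to 1393 in libraries labelled CRISPR and 1444 to 1535 in those labelled control. Neuroendocrine markers were at 63888 to 66782 in libraries labelled CRISPR and 68968 to 69992 in those labelled control. Their part in the members' values was not tested.

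The difference between the small cell lines passed for 3 of 10 genes, beside 14.4% of 21188 tested genes, 7.41% with a higher and 6.97% with a lower change in DMS454. DUSP4 differed by -0.68 (DMS454 minus H1694, SE 0.06, adjusted p = 2.4e-05), having risen in H1694 and not in DMS454. SPRED1 differed by 0.57 (SE 0.11, adjusted p = 0.00463) in the other direction. ETV4 differed by -0.51 (SE 0.16, adjusted p = 0.0424), a call that stood close to the threshold and was lost in 8 of the 12 fits that left out a library, those without DMS454 labelled control library 1 or 2 or without any single H1694 library (adjusted p = 0.0598 to 0.0997). Without DMS454 library 3 labelled CRISPR, EGR1 was called at 1.01 (adjusted p = 0.0185). The interval of the ETV5 difference was -0.04 to 0.46, and that of FOS was -1.69 to 1.73.

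By gene, ETV5 rose in 3 of the 4 lines, H1299, DMS454 and H1694, and fell in none. ETV4 rose in both small cell lines and fell in A549. DUSP5 fell in both OE lines and did not pass in the small cell lines, and FOS fell in both OE lines and rose in H1694. DUSP6 and DUSP4 each fell in A549 and rose in H1694. SPRY2 rose in H1299, SPRED1 rose in DMS454, and SPRY4 and EGR1 fell in H1299, and none of these passed in another line.

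Other genes of the pathway were described from lists of related genes. The shares of all tested genes called were 44.4% in A549, 28.8% in H1299, 18.9% in DMS454 and 17.6% in H1694. The medians over all tested genes were -0.0019, 0.0018, 0.0004 and -0.0010 in the same order. The counts and medians of the lists below are to be read beside these, and no list was tested against them. Of 24 further feedback and output genes, 7 rose and 3 fell of 21 tested in A549, with a median log2 fold change of 0.06. DUSP1, a nuclear phosphatase that acts on several MAP kinases, averaged 3613 ± 138 normalized counts in OE and 1360 ± 111 in control cells (SD, n = 3 each) and rose by 1.41 on the log2 scale in A549. The interleukin IL11 rose by 2.38 there, and SPRY1 fell by 1.40, at 43.8, 29.8 and 25.7 in OE against 67.1, 98.9 and 98.01 in control libraries. In H1299, 7 rose and 5 fell of 21, with a median of 0.01. DUSP1 fell there to 446 ± 58.0 in OE, against 1046 ± 57.0 in control cells (log2 fold change -1.23), while ERRFI1, an inhibitor of the EGF receptor, rose by 0.73 and the cytokine LIF by 0.73.

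In DMS454, 3 of 21 further feedback genes rose and 1 fell (median 0.16). They included DUSP7 at 0.39, ERRFI1 at 0.26 and the receptor EPHA4 at -1.11. In H1694, 7 of 21 rose and 2 fell (median 0.10), with the phosphatases DUSP8 at 0.82 and DUSP9 at 0.46 and the SPRED1 relative SPRED3 at 0.42.

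Of 23 further immediate early genes, 11 rose and 5 fell of 21 tested in A549, with a median of 0.30. JUN averaged 1104 ± 86.4 normalized counts in OE and 368 ± 12.2 in control cells (log2 fold change 1.58), and FOSL1, a FOS relative, 910 ± 38.5 in OE and 300.1 ± 8.89 in control cells (1.60). The nuclear receptor NR4A1 averaged 559 ± 23.0 in OE and 1723 ± 53.6 in control cells (-1.62). JUN, the main dimer partner of FOS, thus rose in the cells where FOS fell. In H1299, 2 rose and 10 fell of 21, with a median of -0.30. FOSB held 179, 57.1 and 65.9 in OE against 312, 389 and 271 in control libraries (-1.86, adjusted p = 0.01001), JUN fell by 0.81 and NR4A1 by 0.92. JUN was thus called in opposite directions in A549 and H1299, while NR4A1 fell in both lines.

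In DMS454, 3 of 20 further immediate early genes rose and 2 fell (median 0.01), with JUNB at 0.45, IER2 at 0.30 and MYC at -0.25. In H1694, 5 rose and 5 fell of 21 (median 0.06), with JUND at 0.55, MYC at -0.71 and ZFP36, which destabilises cytokine transcripts, at -0.61.

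For the kinase cascade itself, of 18 genes of the RAS, RAF, MEK and ERK core, 5 rose and 5 fell in A549 (median 0.02), 3 and 5 in H1299 (-0.08), 4 and 1 in DMS454 (0.03), and 1 and 1 in H1694 (-0.0014). The named changes were HRAS at 0.39, the scaffold KSR1 at -0.38 and the adaptor FRS2 at 0.37 in A549, and KSR1 at 0.60, the phosphatase PTPN11 at -0.58 and FRS2 at -0.47 in H1299. The exchange factor SOS1 at 0.23 and the adaptor SHC1 at -0.19 were named in DMS454, and in H1694 the named changes were GAB1 at -0.32 and KSR1 at 0.21.

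Of 10 genes for ERK substrate kinases and for the ternary complex factors that join serum response factor at CArG boxes, 3 rose and 3 fell of 9 tested in A549 (median 0.09), with ELK3 at 0.94, RPS6KA4 at 0.72 and RPS6KA3 at -0.35. In H1299, 1 rose and 1 fell of 10 (median 0.04), RPS6KA5 at 0.84 and ELK4 at -0.38. In DMS454, RPS6KA3 at 0.26 and RPS6KA2 at -0.55 were the calls of 10 tested (median 0.05), and in H1694 ELK3 at 0.52 and RPS6KA4 at -0.28 were those of 9 (median -0.07).

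EGF family ligands, which activate the pathway from outside the cell, gave 3 rises and 1 fall of 7 tested in A549 (median 0.38). NRG1 averaged 3727 ± 156 normalized counts in OE and 1688 ± 25.8 in control cells (1.14), EREG rose by 0.68 and AREG by 0.38. In H1299, 2 rose and 2 fell of 4 (median -0.07), among them HBEGF at -0.83, NRG1 at -0.72 and TGFA at 0.58. NRG1 was called in opposite directions in the OE lines. In DMS454, 0 of 6 tested ligands passed limma's test (median -0.40), 0 had an unadjusted p under 0.05, and 0 were called by edgeR, DESeq2 or limma-voom. In H1694, TGFA at -0.21 was the call of 3 tested (median -0.21).

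Likeness of pattern was described for DUSP6 and EGR1 over the 24 libraries, each centred on the mean of its line, among 10203 genes. For DUSP6 the highest Pearson correlations were those of INSIG1-DT (0.83), ARHGEF25 (0.83), TRIB3 (0.82), MOAP1 (0.82) and NUP210 (0.82). For EGR1 they were those of ASXL1 (0.74), TAP2 (0.74), CENPE (0.73), INTS12 (0.71) and ZSCAN29 (0.71). These points share libraries and groups, and the values are given without a test.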

How the data were processed

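The deposited values are a signal per gene and library: read counts divided by DESeq2 size factors, in a separate table per line. The authors' deposited fold changes are on the log2 scale. The reads were handled with CASAVA, FastQC, Trim Galore, STAR, DESeq2 and hg38, per the submitters' processing notes. No version, counter, strand setting or annotation is stated (not given in the sources used here), so reads of antisense neighbours cannot be told apart. Whole reads were recovered for 100% of values within 0.01.

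Genes whose mean reached 10 normalized counts in either group were tested per line with limma 3.58.1 (trend and robust, R 4.3.3) on log2(value + 1), Benjamini-Hochberg adjusted over all tested genes at 0.05. Every adjusted p in the text is from limma unless another tool is named. Differences between lines came from 1 fit of 12 libraries. P values measure the spread between 3 libraries per group. The members and lists were chosen with earlier results of these data known. Named genes are HEPACAM2, all members, up to 3 called genes of largest change per further list and line with a mean of at least 50, and the 5 genes most like DUSP6 and EGR1. A gene that this rule names in DMS454 is not reported here. Alternatives were edgeR 4.0.16, DESeq2 1.42.0 and limma-voom on recovered reads, TMM scaling, no filter, a mean of 50, a pseudocount of 5, the replicate number as a block, and leaving out libraries. For differences between lines, DESeq2, limma-voom, TMM scaling and no filter were not run. The limma fits, within a line and for a difference between lines, were tested on simulated data, and the other tools and the block were not. The simulated data had the same spread setting for every gene and no library that stood apart. Coordinates came from GENCODE release 29. Symbols came from a reference list of gene names, or from GENCODE release 29 where that list had none. In all, 99.97% of identifiers had a symbol.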

Additional observations from a re-analysis of the deposited data

Results flagged for a closer look

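The change in the OE libraries differed between A549 and H1299, by the test of the difference itself (A549 minus H1299, log2 scale), for DUSP5 (0.90), DUSP6 (-0.69), SPRY2 (-0.69), ETV4 (-0.70), ETV5 (-0.40) and EGR1 (1.03). Each of these 6 calls held with edgeR on recovered reads, the stricter filter (50) and the larger pseudocount (5). They also held with the replicate block, without each library in turn and without both H1299 libraries numbered 1. These were the alternatives run for this difference. The block and the fit without libraries numbered 1 are weak checks in H1299. The block joins H1299 libraries whose deviations correlated at -0.791 to -0.442. The H1299 OE libraries numbered 2 and 3 deviated from the mean of their full group in the opposite direction to control libraries 2 and 3 (correlations -0.576 to -0.374). The fit without libraries numbered 1 rests on these libraries, and the correlations were not computed again for it. The change in the libraries labelled CRISPR differed between DMS454 and H1694 (DMS454 minus H1694) for DUSP4 (-0.68), SPRED1 (0.57) and ETV4 (-0.51). The DUSP4 and SPRED1 calls held with edgeR, the filter at 50, the pseudocount of 5, the block and without each library in turn, and the ETV4 call was lost in 8 fits that left out a library.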

How the results depend on the processing

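With the replicate number as a block, 3 of 9 members were called in H1299 (DUSP5, SPRY2 and EGR1) and 1634 genes in all. Same-numbered libraries did not deviate together: their correlations were -0.791 to -0.442 in H1299 and -0.192 to 0.351 in the other lines. The numbers were therefore not taken as pairs. In H1299, OE library 1 deviated together with control libraries 2 and 3 (correlations 0.513 and 0.664). OE libraries 2 and 3 did so with control library 1 (0.617 and 0.641). This pattern across the H1299 groups was not modelled, and its part in the members' values was not tested. Without both H1299 libraries numbered 1, 8922 genes were called, and 6 members. Leaving out 1 library at a time moved the members called between 5 and 6 in A549 (all genes 6442 to 6987), between 3 and 7 in H1299 (2674 to 5429), between 2 and 5 in DMS454 (1964 to 6605) and between 4 and 6 in H1694 (1835 to 4510). The differences between lines gave 6 to 6 members for A549 minus H1299 and 2 to 4 for DMS454 minus H1694. The causes were not tested. Of single members' values, 23 calls were lost and 6 gained over the fits that left out a library, and 6 lost and 11 gained over the other alternatives, and no called value changed sign. The calls of all 5 A549 members, of DUSP5, SPRY2 and EGR1 in H1299, of SPRED1 and ETV5 in DMS454 and of DUSP4, ETV4, ETV5 and FOS in H1694 held in every alternative run for its line. For the scarce SPRY4 in DMS454 and EGR1 in A549 the 95% intervals of the log2 fold change were wide, -0.17 to 0.97 and -0.19 to 0.69, and no call was made; how depth bears on this was not tested.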
